A study of Mus musculus with 2 samples.

Results

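Chemokines are small secreted proteins that guide leukocytes into tissue, and this account follows 10 of them across the cells of atherosclerotic mouse aortas: Ccl2, Ccl4, Ccl5, Ccl7, Cxcl1, Cxcl2, Cxcl9, Cxcl10, Cxcl12 and Cx3cl1. They were taken by name from the 14714 genes of the deposited count table, by a rule that uses no measured value. All 10 were in the table. They held 14457 UMIs (unique molecular identifiers, each standing for 1 captured transcript) in the control library and 1530 in the knockout library, and Cxcl9 had none in the control. For each gene the UMIs of a library or cell population were added up and divided by all UMIs there, per 1000000 (CPM).

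The study profiled single cells of enzymatically digested aortas by 10x 3' tag sequencing after a western diet of 12 weeks. There were 2 libraries, 1 per genotype. The control library came from Apoe-/- mice, which lack apolipoprotein E and develop atherosclerosis on this diet (Apoe knockout below). The other came from EC-iDKO/Apoe-/- mice, which carry the same Apoe loss and, in addition, an inducible double knockout in endothelial cells (double knockout below). From knowledge of the line, the 2 genes removed are the endocytic adaptors Epn1 and Epn2. The sources used here do not state the driver of the knockout, its induction, the age of the mice or how many were pooled. The protocol adds CD31 microbeads, which bind endothelial cells, while the label of both libraries says that all cells were used, so the share of each cell type may depend on the beads.

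The Apoe knockout library held 2428 cells and 13304762 UMIs (median 3770). The double knockout library was larger and shallower (5489 cells, 6853185 UMIs, median 769), and 34.0% of its cells against 94.6% reached 1000 UMIs. A total of 5 cell barcodes occurred in both libraries. In the endothelial cluster 9, Epn1 had 9 and 2 UMIs (33.7 and 7.95 CPM, Apoe knockout first here and in all pairs below) and Epn2 had 20 and 25 (74.9 and 99.3 CPM). A 3' tag can come from a transcript that lacks an upstream exon, so these values do not check the knockout. With 1 library per genotype there was no test. A gene was called higher or lower in the double knockout when it had at least 20 UMIs over both libraries, its CPM differed by 1.5 times or more, and the 95% interval of the ratio did not hold 1. Intervals cover counting error alone; the spread between mice and preparations is unknown.

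Chemokines bind heparan sulphate on the endothelium and act through receptors with 7 membrane spans. The CC chemokines Ccl2 and Ccl7 recruit monocytes through Ccr2, and Ccl4 and Ccl5 attract T cells and macrophages. Cxcl1 and Cxcl2 recruit neutrophils through Cxcr2, Cxcl9 and Cxcl10 are induced by interferon and recruit T cells through Cxcr3, Cxcl12 holds cells that carry Cxcr4, and Cx3cl1 is a membrane-bound chemokine of endothelium and muscle that binds Cx3cr1. In plaques these signals are known for bringing in the monocytes that become macrophages.

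The genes lie in a few clusters of the genome (GRCm38, GENCODE annotation). Cxcl1 (chr5:90891241-90893115) and Cxcl2 (chr5:90903871-90905938) are neighbours on the plus strand, and Cxcl9 (chr5:92321347-92328079) and Cxcl10 (chr5:92346638-92348889) are neighbours on the minus strand. Ccl2 (chr11:82035571-82037453), Ccl7 (chr11:82045712-82047525), Ccl5 (chr11:83525778-83530518) and Ccl4 (chr11:83662584-83664683) share chromosome 11, while Cxcl12 (chr6:117168535-117181367) and Cx3cl1 (chr8:94772009-94782427) stand alone. Of the 10 genes, 6 had an entry in the RefSeq promoter table of GRCm38.p6. Windows of 4 promoters are shown because Cxcl1, Cxcl2 and Cxcl10 are inducible and were highest in the same macrophage cluster of the Apoe knockout, whereas Cxcl12 was lowest there. The windows for Cxcl1, Cxcl2 and Cxcl12 run 5′ to 3′ from 120 bases before the transcription start to 30 bases from it, and that for Cxcl10 covers 180 bases further upstream. Capitals mark matches, on either strand, to the kappaB consensus, the interferon response element GAAANNGAAA, the AP-1 motif TGANTCA or the TATA box TATAAA.

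Cxcl1, chr5:90891125-90891274, plus strand: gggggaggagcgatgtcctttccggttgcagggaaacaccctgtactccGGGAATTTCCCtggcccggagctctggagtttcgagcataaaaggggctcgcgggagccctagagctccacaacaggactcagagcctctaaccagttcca
Cxcl2, chr5:90903779-90903928, plus strand: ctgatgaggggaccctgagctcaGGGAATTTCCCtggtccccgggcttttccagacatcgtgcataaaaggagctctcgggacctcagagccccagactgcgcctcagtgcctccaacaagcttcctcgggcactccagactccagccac
Cxcl10, chr5:92348950-92349129, minus strand: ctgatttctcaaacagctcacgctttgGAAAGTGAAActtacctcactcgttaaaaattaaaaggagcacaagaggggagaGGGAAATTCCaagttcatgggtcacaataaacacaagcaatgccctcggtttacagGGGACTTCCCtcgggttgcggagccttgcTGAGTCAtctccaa
Cxcl12, chr6:117168415-117168564, plus strand: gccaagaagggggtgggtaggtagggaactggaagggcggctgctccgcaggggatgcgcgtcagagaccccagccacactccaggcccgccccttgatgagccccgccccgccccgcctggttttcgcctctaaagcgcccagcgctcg

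Cxcl1 and Cxcl2 held the same kappaB match, on both strands, beginning 71 and 97 bases before the start, the match on one strand overlapping that on the other. Cxcl10 held 2 kappaB matches, the farther at 159 bases before its start, with an interferon response element at 213 and an AP-1 match at 74. The Cxcl12 promoter held none of the 4 motifs in the whole 300 bases searched. Among the promoters not shown, that of Cxcl9 held an AP-1 match and a TATA box, but no kappaB match and no interferon response element. That of Cx3cl1 held a TATA box alone. Of 32851 promoters of this length, 4.51% held a kappaB match, 3.44% the interferon element, 7.81% the AP-1 motif and 13.6% the TATA box. The motifs were chosen after the levels were known, and a match describes letters, not a used site.

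Across the whole libraries, chemokine RNA was lower in the double knockout, where the 10 genes summed to 223.3 CPM against 1087 CPM. Of the 9 genes with enough UMIs, 8 were called lower and 0 higher, where 13.1% of all 13257 genes measured were called lower and 9.53% higher. Ccl4 had 3658 UMIs against 27 (274.9 and 3.94 CPM, ratio 0.0143, interval 0.00943 to 0.0209). Cxcl2 had 5639 against 235 (423.8 and 34.3 CPM, ratio 0.0809, 0.0707 to 0.0922). Ccl2 had 178 against 12 (ratio 0.131) and Cxcl10 820 against 97 (ratio 0.230). The falls of Ccl7 (164 and 26 UMIs, ratio 0.308), Ccl5 (326 and 94, 0.560), Cxcl1 (1656 and 449, 0.526) and Cxcl12 (1679 and 445, 0.5145) were smaller, and Cx3cl1 (337 and 128, 0.737) did not reach the size needed. The Ccl5 ratio rested on 1 double knockout cell: without the cell with the most Ccl5 UMIs in each library it was 0.0986. Among cells with 1000 or more UMIs and less than 10% mitochondrial, the ratios of Ccl2 (0.0666), Ccl7 (0.197) and Cxcl10 (0.04355) were lower still and that of Ccl5 was 0.717. Macrophage RNA moved the same way: all 12 macrophage markers were called lower, from a summed 1824 to 62.9 CPM, with Adgre1 at 0 UMIs in the double knockout. Fewer macrophages and less RNA per macrophage cannot be told apart in these sums. With the macrophage cluster 13 left out of both libraries, an alternative chosen after seeing the data, 5 of the 8 were still called lower (Ccl2, Ccl4, Cxcl2, Cxcl10 and Cxcl12). With every cell of 2 or more macrophage marker UMIs left out, 3 were (Ccl2, Ccl4 and Cxcl10). Cxcl12 then stood at 0.670, and the ratios of Ccl7, Cxcl1 and Cxcl2 were 1.552, 1.036 and 1.342. Of the 178 Apoe knockout Ccl2 UMIs, 128 lay in the cells so left out. A further 34 lay in 1 cell of cluster 9 with no macrophage marker UMI. The Ccl2 ratio without both sets of cells was not tested.

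**Figure D1:**
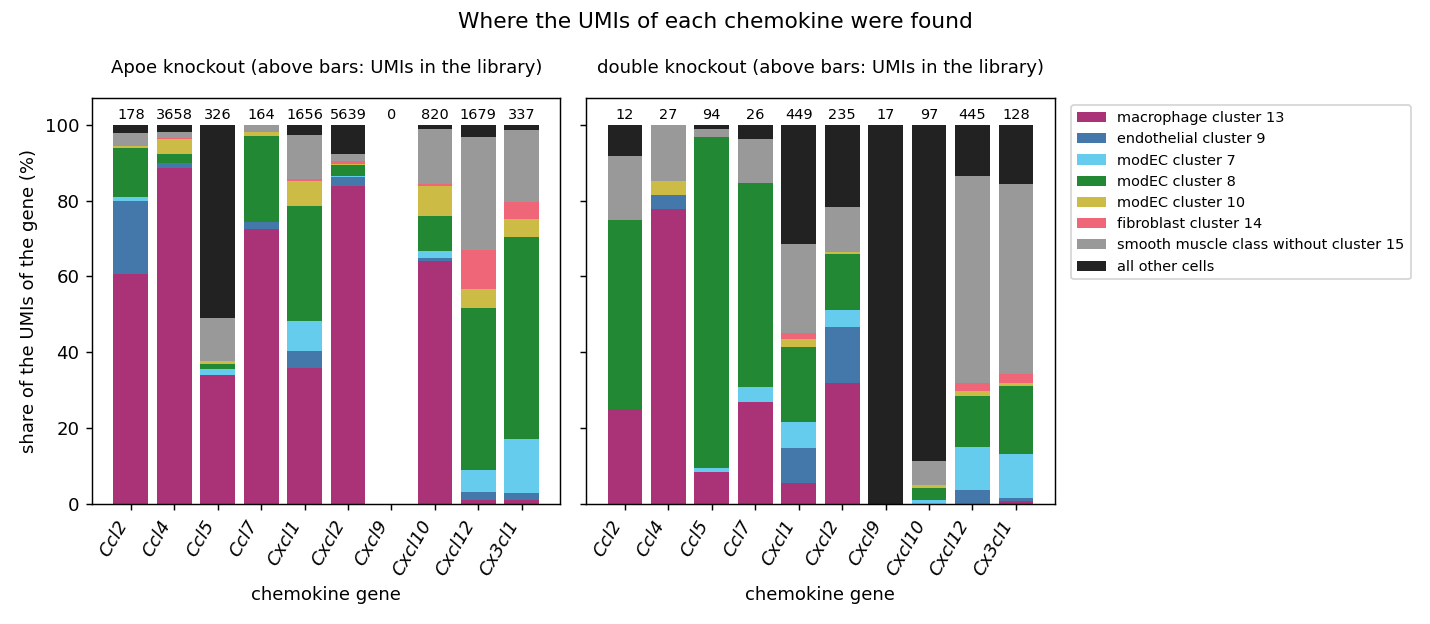
Each bar splits the UMIs of 1 chemokine, as a percent of its UMIs in that library, over the deposited clusters; the number above a bar is the UMI count. In the Apoe knockout, macrophage cluster 13 (purple) held 88.7% of the Ccl4 and 83.9% of the Cxcl2 UMIs, and modEC cluster 8 (green) the largest parts of Cxcl12 and Cx3cl1; Cxcl9 had no UMI there.

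The levels below use the classes and cluster numbers that the authors deposited. The clusters came from the expression of these same cells, chemokines included (Ccl4 and Cxcl2 led cluster 13, and Ccl5 led cluster 20), so a level in a cluster against the rest describes the cluster and is not a finding. Cluster 13 of the immune/inflam class led with macrophage genes such as Tyrobp, Ctss and C1qb. Cluster 9 of the EC class led with the endothelial genes Ptprb, Vwf and Pecam1. The modEC clusters led with genes of other types (Lum and Dcn in cluster 8, the cartilage genes Ibsp and Chad in cluster 10, Vcam1 and Mgp in cluster 7) and are named by number only. Cluster 20 of the EC class led with the T cell genes Cd3g, Cd3d and Trac, and its 25 Apoe knockout cells held 239 UMIs of 7 T or NK cell markers (4226 CPM). Its 26 double knockout cells held 0 of these, but 2352 CPM of endothelial markers. Cluster 15 of the SMC class led with the adipocyte genes Cfd, Car3 and Adipoq, so that class is described here without it.

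**Figure D2:**
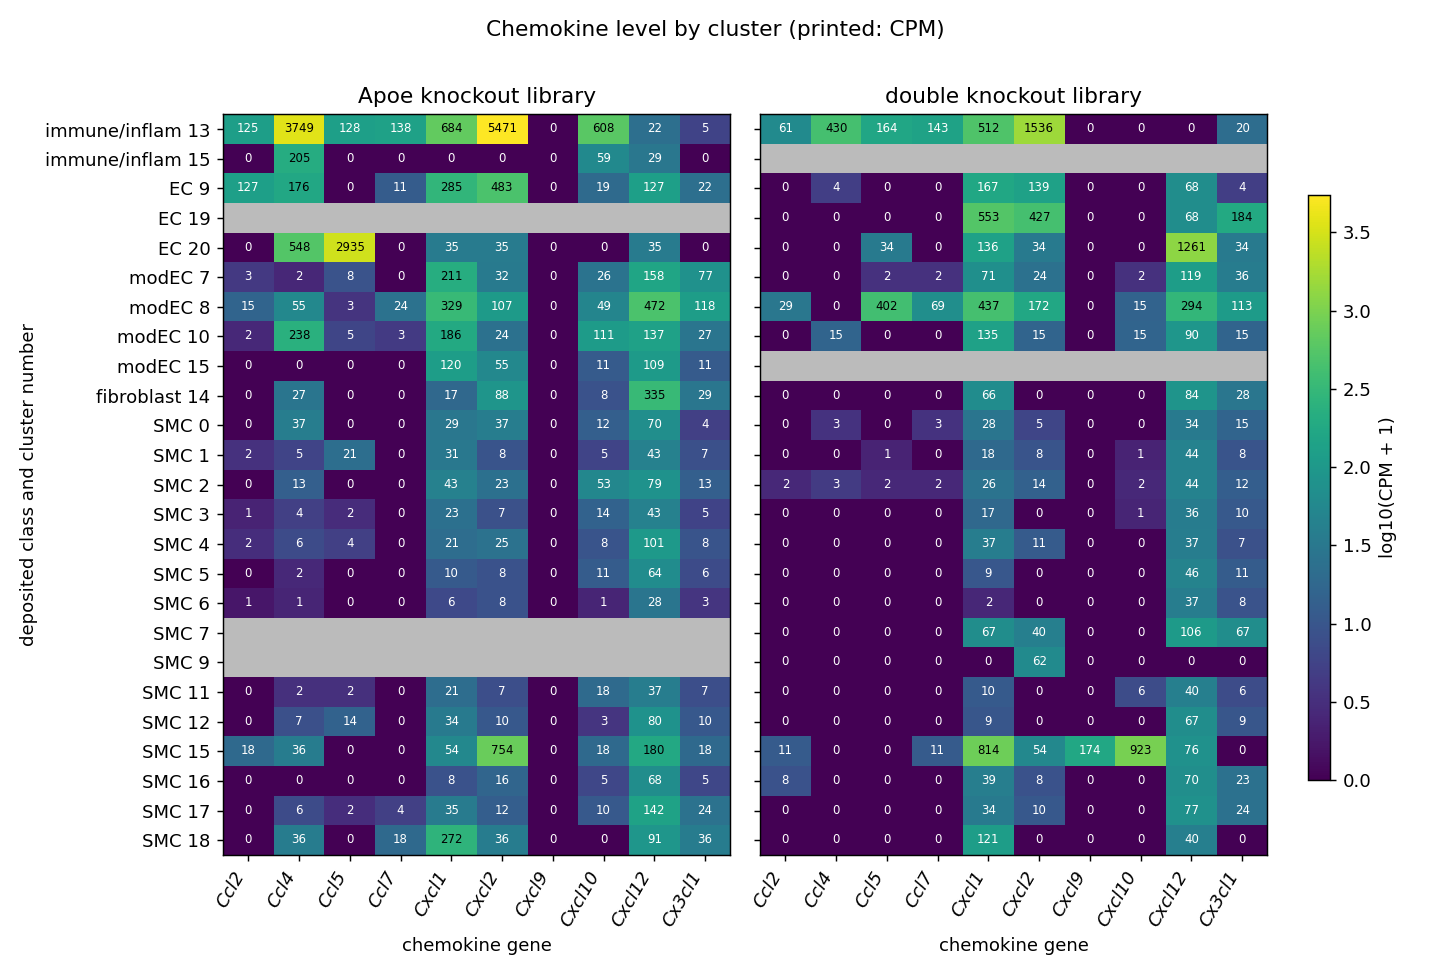
Level of each chemokine (columns, CPM printed, colour on a log10(CPM + 1) scale) in each deposited cluster with at least 20 cells (rows), for both libraries; grey rows had fewer cells. The macrophage cluster 13 of the Apoe knockout stood highest for Ccl4 (3749 CPM) and Cxcl2 (5471 CPM), and in the double knockout cluster 15 of the SMC class was the place of Cxcl9 and Cxcl10.

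In macrophage cluster 13 (144 and 53 cells), 3 of the 7 chemokines with enough UMIs were called lower in the double knockout and 0 higher, where 5.62% of 5537 genes were called lower and 8.33% higher. Ccl4 went from 3243 to 21 UMIs (3749 and 430.2 CPM, ratio 0.115, interval 0.0709 to 0.176) and Cxcl2 from 4732 to 75 (5471 and 1536 CPM, ratio 0.281, 0.2205 to 0.353). Cxcl10 went from 526 UMIs (608.1 CPM) to 0, which is 9.90-fold lower against the floor of 3 UMIs over the cluster (interval from 8.02-fold). Cxcl1 (684.4 and 512.1 CPM), Ccl2 (124.9 and 61.5), Ccl7 (137.6 and 143.4) and Ccl5 (128.3 and 163.9) were not called, on 25, 3, 7 and 8 double knockout UMIs. All 8 of the Ccl5 UMIs were in 1 cell. The cluster itself differed between the libraries. The 12 macrophage markers summed to 23070 CPM in the Apoe knockout and 5858 CPM in the double knockout, 11 of them were called lower, and the median cell had 4565 and 696 UMIs. Smooth muscle markers moved the other way there, from 12980 to 36360 CPM, with 5 of 5 measured called higher. The part of these shifts in the chemokine ratios was not tested. Among cells thinned to 1000 UMIs, Ccl4 was seen in 73 of 139 cells (52.5%) and in 8 of the 15 double knockout cells deep enough (53.3%), against 1.20% of 1421 Apoe knockout smooth muscle cells, which should lack it. Before thinning these shares were 69.4%, 20.8% and 2.64%, at median depths of 4565, 696 and 4892 UMIs.

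Of the 144 cells of the Apoe knockout macrophage cluster, 100 had a Ccl4 UMI and 105 a Cxcl2 UMI, so most cells with another chemokine also had one of these. All 54 cells with a Cxcl10 UMI and all 20 with Ccl5 had a Ccl4 UMI, as did 25 of 27 with Ccl2, 14 of 16 with Ccl7, 41 of 55 with Cxcl1 and 10 of 17 with Cxcl12. Cxcl2 was seen in all 16 cells with Ccl7 and in 48 of 55 with Cxcl1. A few cells held most of the RNA: 1 cell had 728 Cxcl2 UMIs (12.9% of the library's), another had 504 of Ccl4 (13.8%), and 10 cells held 50% of the Ccl4 UMIs of the library and 11 cells 50% of those of Cxcl2. Cxcl12 was spread more widely, with 50% of its UMIs in 72 cells of the Apoe knockout library and 130 of the other.

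**Figure D3:**
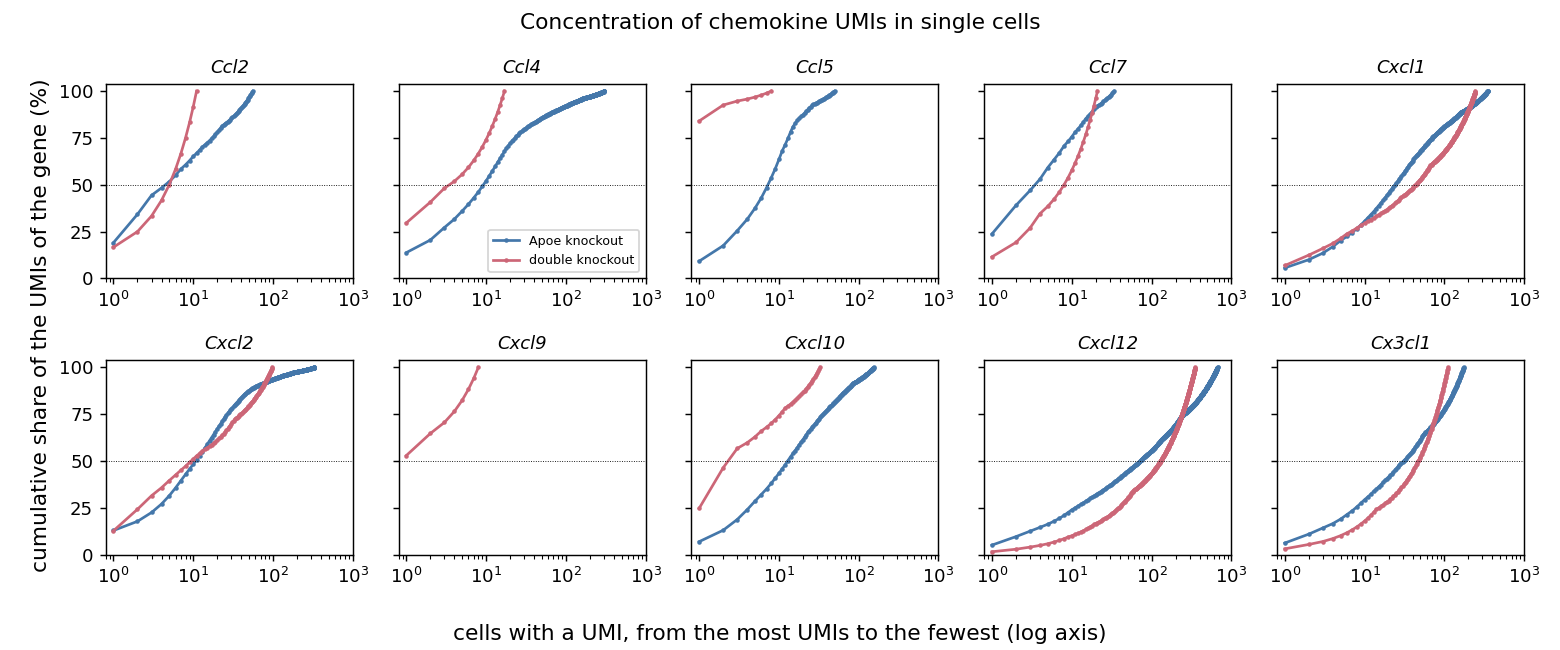
Cumulative percent of a gene's UMIs (vertical axis) against the number of cells with a UMI, ranked from the most UMIs to the fewest (log axis), in the Apoe knockout (blue) and double knockout (red) libraries; the dotted line marks 50%. The double knockout curve of Ccl5 starts at 84.0% and that of Cxcl9 at 52.9%, each in 1 cell, while the Cxcl12 curves rise slowly.

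Ccl2 and Ccl7, the monocyte attractants that bind Ccr2, had most of their Apoe knockout UMIs in macrophage cluster 13 (108 of 178 and 119 of 164). In the double knockout most were elsewhere: modEC cluster 8 held 6 of 12 Ccl2 and 14 of 26 Ccl7 UMIs, against 3 and 7 in cluster 13. Ccl2 stood at 127.3 CPM in cluster 9 of the EC class and 124.9 CPM in cluster 13 of the Apoe knockout, with overlapping intervals, and at or under 18.0 CPM in the other 20 Apoe knockout clusters with at least 20 cells. The endothelial value came from 1 cell: a single cell of 21998 UMIs held all 34 Ccl2 UMIs of cluster 9, and it had no macrophage marker UMI. The double knockout cluster 9 had 0 Ccl2 UMIs in 287 cells, 10.7-fold lower against the floor of 3 UMIs (interval from 8.225-fold). Without that 1 cell both libraries were at 0. In modEC cluster 8, Ccl2 had 23 and 6 UMIs (15.1 and 29.4 CPM, ratio 1.95, interval 0.648 to 4.92) and was not called. Ccl7 was higher there in the double knockout, with 37 and 14 UMIs (24.3 and 68.7 CPM, ratio 2.82, 1.41 to 5.35). Its 14 UMIs came from 10 of 147 cells, and the ratio was 3.39 without the cell with the most Ccl7 UMIs in each library. In the deeper cells alone, 37 and 7 UMIs gave a ratio of 2.03 (0.762 to 4.60), which was not called.

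Ccl4 and Ccl5, which attract T cells and macrophages, differed in where they were found. Ccl4 followed the macrophage markers: 20 of 22 Apoe knockout clusters had a Ccl4 UMI, against 5 of 23 in the double knockout, and 3568 of 3658 Apoe knockout UMIs were in cells with at least 2 macrophage marker UMIs. It was called lower in the endothelial cluster 9 (47 and 1 UMIs, 176.0 and 3.97 CPM, ratio 0.0226, interval 0.00056 to 0.132), modEC cluster 10 (141 and 1, 237.7 and 15.0 CPM, ratio 0.0633, 0.00159 to 0.358) and the smooth muscle class (56 and 4, 6.54 and 0.7295 CPM). In modEC cluster 8 it went from 83 UMIs to 0, 3.71-fold lower against the floor of 3 UMIs (interval from 2.95-fold). Macrophage marker levels in these 4 populations were 2382, 1517, 105.8 and 586.1 CPM against 51.7, 105.3, 15.9 and 19.6 CPM, in that order.

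**Figure D4:**
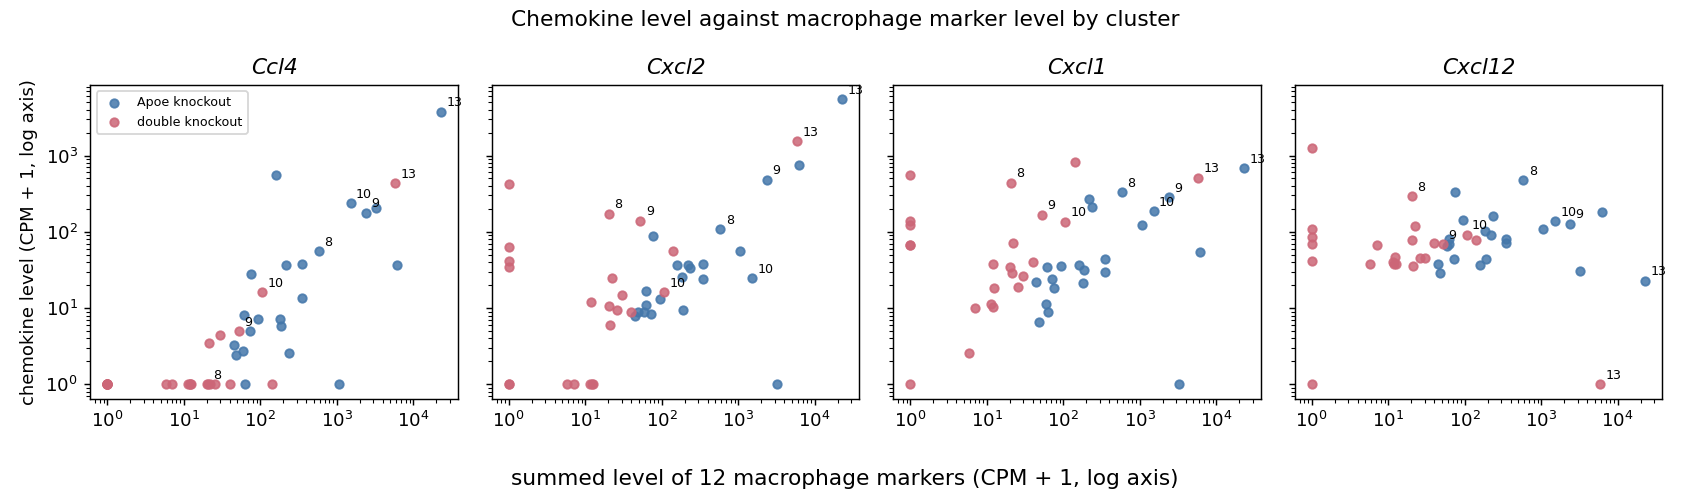
Level of 4 chemokines (vertical axis, CPM + 1, log axis) against the summed level of 12 macrophage markers (horizontal axis, CPM + 1, log axis), 1 point per deposited cluster of at least 20 cells in the Apoe knockout (blue) and double knockout (red); numbers mark clusters 8, 9, 10 and 13. Ccl4 was highest in the cluster richest in macrophage markers, whereas Cxcl12 in the same Apoe knockout cluster 13 stood at 21.97 CPM.

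In the Apoe knockout, most Ccl5 UMIs lay in the cluster with T cell genes, which Ccl5 itself led, and in macrophage cluster 13. Cluster 20 of the EC class held 166 of the 326 Apoe knockout UMIs (50.9%, 2935 CPM), in 11 of its 25 cells, and macrophage cluster 13 held 111 (128.3 CPM). In the double knockout cluster 20, where none of 7 T or NK cell markers had a UMI, Ccl5 had 1 UMI. Most double knockout Ccl5 came from 2 cells: 79 of the 94 UMIs lay in 1 cell of modEC cluster 8, the deepest cell of the library at 15078 UMIs, with no macrophage or T cell marker UMI, and 8 lay in 1 cell of cluster 13 with 3 T cell marker UMIs and no macrophage marker UMI. The call of Ccl5 as higher in modEC cluster 8 (4 and 82 UMIs, ratio 152.9, interval 57.5 to 574.5) rested on that deepest cell. With the cell of this cluster with the most Ccl5 UMIs left out in each library, 1 and 3 UMIs remained (ratio 23.5, 1.89 to 1236), under the minimum for a call. Whether these cells were doublets was not tested. Ccl5 was called lower in the smooth muscle class (37 and 2 UMIs, 4.32 and 0.365 CPM, ratio 0.0844, 0.00986 to 0.327). There 1 Apoe knockout cell held 16 of the 37 UMIs and another held 9. Without the UMIs of the top cell of each library the levels were 2.45 and 0.182 CPM. After thinning, 3 of 1421 and 0 of 1500 cells had a Ccl5 UMI.

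Cxcl1 and Cxcl2, the neutrophil attractants with the shared kappaB match shown above, were found in most clusters. Cxcl1 had UMIs in 21 of 22 clusters in the one library and 22 of 23 in the other, with medians of 34.2 and 39.0 CPM. In the Apoe knockout it was highest in macrophage cluster 13 (684.4 CPM), apart from the next, modEC cluster 8 (328.9) and the endothelial cluster 9 (284.7), which overlapped each other in their intervals. In the double knockout the order was SMC cluster 15 (814.2 CPM), endothelial cluster 19 (552.7) and cluster 13 (512.1), with every neighbour overlapping the next; in deeper cells, where clusters 13 and 15 fell under 20 cells, cluster 19 was the highest. Cluster 19, of 67 double knockout cells, led with endothelial genes such as Sema3g and Cldn5 and had no macrophage marker UMI. Of its cells, 44.8% had a Cxcl1 and 43.3% a Cxcl2 UMI at a median depth of 1280 UMIs. After thinning to 1000 UMIs these shares were 42.9% and 40.5% of 42 cells. In cluster 20 of the Apoe knockout, with its T cell markers and a median of 2096 UMIs, 2 of 25 cells had a Cxcl1 and 2 a Cxcl2 UMI, and after thinning 8.70% and 0 of 23 cells did. The 9 Apoe knockout cells of cluster 19 held 21 Cxcl1 and 380 Cxcl2 UMIs beside 182 macrophage marker UMIs (5754 CPM), too few cells for a comparison.

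In the endothelial cluster 9 (96 and 287 cells), 5 of 5 measured chemokines were called lower and 0 higher, where 8.79% of 4109 genes were called lower and 7.20% higher. Cxcl2 went from 129 to 35 UMIs (483.2 and 139.1 CPM, ratio 0.288, interval 0.192 to 0.421) and Cxcl1 from 76 to 42 (284.7 and 166.9 CPM, ratio 0.586, 0.392 to 0.866). Cxcl12 went from 34 to 17 (127.3 and 67.55 CPM, ratio 0.530, 0.278 to 0.976). The others were Ccl4 and Ccl2, and all 34 Ccl2 UMIs came from 1 Apoe knockout cell. Macrophage markers moved with these genes: at least 2 macrophage marker UMIs were seen in 72 of 96 cells (75.0%) of the one library and 1 of 287 of the other, and 7 of 7 measured markers were called lower, with 8 of 12 at 0 in the double knockout. All 129 Cxcl2 UMIs, all 47 Ccl4 UMIs and 72 of the 76 Cxcl1 UMIs of the Apoe knockout cluster lay in those 72 cells. So did 25 of the 34 Cxcl12 UMIs, but none of the Ccl2 UMIs. In the other 24 cells, whose median depth was 2054 against 2168 UMIs, 4 Cxcl1 and 0 Cxcl2 UMIs remained, and the direction turned: Cxcl1 was 4.01-fold higher in the double knockout (1.46 to 15.4) and Cxcl2 at least 4.455-fold higher. On the double knockout side, 1 cell of 9526 UMIs held 31 of the 42 Cxcl1 and 30 of the 35 Cxcl2 UMIs. The calls of this turn rested on that cell. An alternative added after seeing the data left out both the macrophage-marker cells and the top cell of each library. Cxcl1 then had 2 and 11 UMIs and Cxcl2 0 and 5, too few for a call. The Cxcl1 ratio stayed above 1 (2.14, 0.466 to 19.8), with an interval that held 1. Without the top cell in each library, with all other cells kept, the ratios were 0.172 and 0.0456. In cells of at least 1000 UMIs and under 10% mitochondrial UMIs (93 and 58), Cxcl1 had a ratio of 1.31 (0.853 to 1.98) and Cxcl2 of 0.729 (0.481 to 1.08), and neither was called.

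Calls of Cxcl1 and Cxcl2 also differed within populations, without a test of the difference between the genes. In macrophage cluster 13 Cxcl2 was called lower (ratio 0.281) and Cxcl1 was not (0.748, interval 0.480 to 1.12). In the smooth muscle class (1516 and 4348 cells) 4 of 7 chemokines were called lower and 1 higher, where 7.67% of 11941 genes were called lower and 9.87% higher. Cxcl2 was among those lower there (100 and 28 UMIs, 11.7 and 5.11 CPM, ratio 0.437), while Cxcl1 had 193 and 106 UMIs (22.5 and 19.3 CPM, ratio 0.858, interval 0.670 to 1.09) and was not called. In modEC cluster 7 Cxcl1 was lower (131 and 30 UMIs, 211.4 and 71.3 CPM, ratio 0.337, 0.219 to 0.505) and Cxcl2 was not called (20 and 10 UMIs, ratio 0.737, 0.308 to 1.65), with overlapping intervals. In modEC cluster 8 Cxcl2 was called higher (162 and 35 UMIs, 106.6 and 171.7 CPM, ratio 1.61, 1.09 to 2.33), with Cxcl1 at 500 and 89 UMIs (328.9 and 436.7 CPM, ratio 1.33, 1.05 to 1.67), again with overlapping intervals. A single double knockout cell held 17 of those 35 Cxcl2 UMIs, and without the top cell of each library the ratio was 1.05. With each cell thinned to 1000 UMIs, which left 51 double knockout cells, 1 of the 6 calls in this cluster held. In fibroblast cluster 14, 46 Cxcl2 UMIs stood against 0, beside 39 and 0 macrophage marker UMIs. This was 3.14-fold lower against the floor of 3 UMIs (interval from 2.455-fold). Of those 46, 18 lay in the 6 cells with at least 2 macrophage marker UMIs and the rest lay in other cells.

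**Figure D5:**
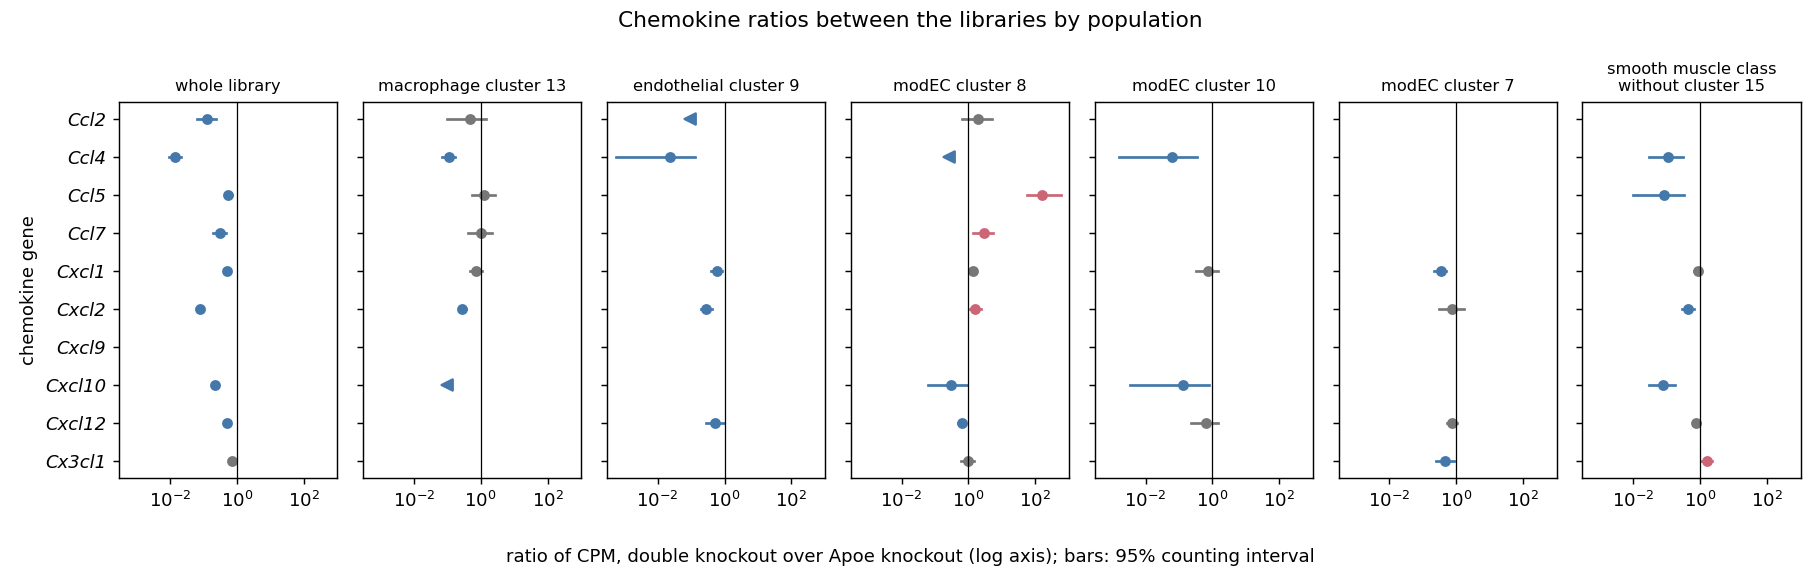
Ratio of CPM, double knockout over Apoe knockout, on a log axis for each chemokine (rows) in 7 populations (panels), with 95% counting intervals; triangles are bounds against a count of 0, blue is called lower, red called higher, grey neither, and genes under 20 UMIs are left out. All calls in the whole library, cluster 13 and cluster 9 lay below 1, while modEC cluster 8 held calls on both sides.

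Cxcl9 and Cxcl10, the interferon-induced T cell attractants, were found in different cells in the 2 libraries. In the Apoe knockout, Cxcl9 had 0 UMIs, which allows up to 0.2255 CPM, and 526 of 820 Cxcl10 UMIs (64.2%) were in macrophage cluster 13. In the double knockout, 16 of the 17 Cxcl9 and 85 of the 97 Cxcl10 UMIs were in the 59 cells of SMC cluster 15 (173.7 and 922.8 CPM), a cluster with 4395 UMIs of adipocyte markers (47710 CPM) and 141.1 CPM of macrophage markers. One cell of 10765 UMIs there held 9 Cxcl9, 24 Cxcl10 and 25 Cxcl1 UMIs, and 22 of the 59 cells had a Cxcl10 UMI (37.3%, and 6 of 23 after thinning, at a median of 903 UMIs), against 0 of 26 cells in cluster 20 (median 923). The same deposited cluster in the Apoe knockout had 20 cells, 1 Cxcl10 UMI and no adipocyte marker UMI, so the number stood for different cells in the 2 libraries. Cxcl10 was called lower in the smooth muscle class (118 and 6 UMIs, 13.8 and 1.09 CPM, ratio 0.0794), modEC cluster 8 (75 and 3, 49.3 and 14.7 CPM, ratio 0.298, interval 0.0602 to 0.906; 1.14 after thinning, the direction turned) and modEC cluster 10 (66 and 1, 111.3 and 15.0 CPM, ratio 0.135, 0.00337 to 0.780). In the smooth muscle class 25 of the 118 UMIs came from 1 cell, and the ratio without the top cells was 0.0672. In modEC cluster 10, 50 of the 66 UMIs came from 1 cell, and without the top cell in each library 16 and 0 UMIs were too few for a call.

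Cxcl12, the ligand of Cxcr4 made by stromal cells, was the one member with UMIs in all 22 Apoe knockout clusters, from 21.97 CPM in macrophage cluster 13 through a median of 79.6 to 472.3 CPM in modEC cluster 8. In the Apoe knockout modEC cluster 8 was followed by fibroblast cluster 14 (334.6 CPM), beyond their counting intervals. In the double knockout the highest level was in cluster 20 of the EC class (37 UMIs in 14 of 26 cells, 1261 CPM), then modEC cluster 8 (294.4 CPM) and modEC cluster 7 (118.9 CPM), each apart from the next. Cxcl12 was lower in the double knockout in modEC cluster 8 (718 and 60 UMIs, ratio 0.623, interval 0.471 to 0.812; 1.075 after thinning, the direction turned) and fibroblast cluster 14 (174 and 9 UMIs, 334.6 and 84.4 CPM, ratio 0.252, 0.1135 to 0.490). The fibroblast ratio was 0.262 in cells with fewer than 2 macrophage marker UMIs, while that of modEC cluster 8 moved to 0.8675. In the smooth muscle class Cxcl12 had 502 and 243 UMIs (58.6 and 44.3 CPM, ratio 0.756, 0.646 to 0.883) and did not reach the size needed.

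Over modEC clusters 7, 8 and 10 pooled (438 and 545 cells), 4 of 9 measured chemokines were called lower (Ccl4, Cxcl10, Cxcl12 and Cx3cl1) and 1 higher (Ccl5), where 8.20% of 9783 genes were called lower and 9.51% higher. The pool mixed clusters with different calls, without a test of the difference, and its makeup changed from 182 of 438 cells in cluster 8 to 147 of 545. Cx3cl1, the membrane-bound fractalkine, is an example of differing calls. The pooled ratio was 0.635. In cluster 8 it was 0.958 (179 and 23 UMIs, 117.7 and 112.8 CPM, interval 0.592 to 1.48) and was not called. In cluster 7 it was 0.460 (48 and 15 UMIs, 77.5 and 35.7 CPM, interval 0.2395 to 0.836) and was called lower. The intervals of clusters 8 and 7 overlapped. Cx3cl1 was the only member called higher in the smooth muscle class, with 64 UMIs in each library (7.47 and 11.7 CPM, ratio 1.56, 1.09 to 2.24). Endothelial markers there stood at 52.5 and 67.5 CPM, with 3 of 4 measured called higher, and after thinning the Cx3cl1 ratio was 2.37 but no longer called. Its highest double knockout level was in endothelial cluster 19 (19 UMIs in 13 of 67 cells, 184.2 CPM), whose interval overlapped that of modEC cluster 8.

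The genes most like each chemokine were sought across 37 populations of at least 50 cells (17 and 20 of the libraries), by Pearson's r of log2(CPM + 10), as a description without a test, since populations of a library share its depth and preparation. Ccl4 lay closest to C1qc (r = 0.967), Ctss (0.965) and C1qa (0.964). Ccl2 lay closest to Itgax (0.866), Cybb and Ptprc, Ccl7 to Ccl9 (0.880), and Ccl5 to Ccl7 (0.849). The Ccl5 values leave out cluster 20, its main place in the Apoe knockout, which had too few cells (25 and 26). They include the double knockout modEC cluster 8, where 79 of 82 Ccl5 UMIs lay in 1 cell. Cxcl2 was nearest to Ptger4 (0.884), Traf1 and Cxcl16, and Cxcl1 to Litaf (0.884), Npc2 and Nfkb1. Cxcl10 was nearest to Acp5 (0.840), Cxcl12 to Lox (0.783) and Cx3cl1 to Vcam1 (0.836). Among the members themselves, the highest values were those of Ccl7 with Ccl2 (0.850) and Ccl5 (0.849), and Cxcl2 lay about as close to Ccl2 (0.805) and Ccl7 (0.791) as to its neighbour Cxcl1 (0.789).

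Several chemokine receptors were called lower in the whole libraries as well, where 13.1% of all genes were called lower and 9.53% higher. Cxcr4, the receptor of Cxcl12, had 130 UMIs in the Apoe knockout, Cx3cr1, that of Cx3cl1, had 68, and Ccr2, that of Ccl2 and Ccl7, had 40, and none of these 3 had a double knockout UMI. Ccr7 (61) and Ccr9 (26) had none either. Macrophage cluster 13 held 89 of these Cxcr4, 54 Cx3cr1, 33 Ccr2, 55 Ccr7 and 9 Ccr9 UMIs. Within that cluster Cxcr4 was called lower, 1.67-fold against the floor of 3 UMIs (interval from 1.33-fold). Cx3cr1, Ccr2 and Ccr7 were not called there and Ccr9 had too few UMIs. The double knockout cluster held only 48818 UMIs of all genes, so a count of 0 there says little. Ackr3, the scavenger receptor of Cxcl12, went from 235 to 37 UMIs (ratio 0.306), and Ccrl2, an atypical chemokine receptor, from 518 to 94 (0.352). Ccr1 had 30 and 1 UMIs. Of 13 other chemokines measured, 7 were called lower and 1 higher, against the same 13.1% and 9.53%: Ccl3 (858 and 10 UMIs, ratio 0.0226), Ccl6 (361 and 5, 0.0269), Cxcl16 (985 and 69, 0.136), Ccl9 (210 and 26, 0.240), Cxcl5, Ccl12 and Ccl22 were lower, and the platelet chemokine Ppbp (7 and 16 UMIs, ratio 4.44) was higher. Ccl27a (228 and 116 UMIs, ratio 0.988) was not called.

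Of 20 NF-kappaB inducers and feedback genes, 4 were called lower and 3 higher over the whole libraries, where 13.1% of all genes were called lower and 9.53% higher, so these counts lie near the background. The cytokines Tnf (916 and 10 UMIs, ratio 0.0212), Il1b (502 and 20, 0.0774) and Il1a (40 and 0) and the receptor Tlr2 (524 and 59, 0.219) were lower. The inhibitor Nfkbia (587.5 and 1368 CPM, ratio 2.33), the early response gene Ier3 (331.5 and 862.7 CPM, 2.60) and the adhesion molecule Icam1 (57.2 and 115.3 CPM, 2.02) were higher. In endothelial cluster 9, Nfkbia (ratio 1.75), Ier3 (2.76), Icam1 (2.27) and Vcam1 (2.11) were called higher, and Tnf (31 and 0 UMIs) lower, out of 12 measured, where 7.20% of genes were called higher and 8.79% lower. Of 17 interferon pathway genes, 7 were called higher over the whole libraries (9.53% of all genes were), among them Irf1 (71.9 and 227.6 CPM, ratio 3.17) and Ifit3 (30 and 67 UMIs, 4.34), and 2 lower (13.1% of all genes were): Irf8 (172 and 22 UMIs) and Rsad2 (180 and 17). In macrophage cluster 13 none of 11 measured interferon genes was called higher, and Irf8 (136 and 2 UMIs) and Rsad2 (163 and 0) were lower, where 8.33% of genes were called higher and 5.62% lower. The heat shock genes, which rise with tissue digestion, were called lower over the whole libraries in 5 of 7 cases and the immediate early genes in 4 of 10, with 2 higher, against the same 13.1% and 9.53% of all genes. Their part in the chemokine differences was not tested.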

How the data were processed

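Single-cell 3' tag libraries of mouse aortas were deposited as a table of UMI counts per cell and gene, made by the authors, with a metadata table. Per the submitters' processing notes, Cell Ranger and Seurat were used with the mm10 build. Versions, aligner settings and annotation are not given in the sources used here. In the deposited metadata, the mitochondrial ratio of a cell is a fraction computed by the authors; the class, cluster and library names are the authors' labels. Doublets were not removed here, since no step for them is recorded and the deposited labels were kept.

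Of 10345 deposited cell entries, 2428 were second copies of Apoe knockout barcodes with identical counts and were dropped, which left 7917 cells. The cell totals of all 10345 entries equalled the deposited totals. UMIs were summed per class, cluster and library and given as CPM, with exact Poisson intervals. Ratios carry exact conditional binomial and shares exact Clopper-Pearson intervals, at the 95% level. A count of 0 was set to a floor of 3 UMIs per population and the ratio given as a bound against that floor. The 95% interval of such a ratio reaches past this bound. Cells were thinned to 1000 UMIs for shares. Simulated counts with known ratios were used to check the call rule. They were drawn as Poisson counts from a pooled profile, so the check does not cover UMIs gathered in single cells. Python 3.11.15, numpy 2.4.6, scipy 1.17.1, pandas 2.3.3 and matplotlib 3.10.9 were used.

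All 10 members are named. From each other list, up to 6 members with the most UMIs and any member called in a compared population were eligible, out of those with at least 20 UMIs. The members, lists and populations were chosen with earlier results of these data known. Alternatives were deeper cells, thinning, per-cell means, other scalings, cells without macrophage UMIs, top cells left out (alone or, in cluster 9, with the former), a ratio of 2 and a minimum of 50 UMIs. One item is not reported here.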

Additional observations from a re-analysis of the deposited data

Results flagged for a closer look

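Some chemokines were called in opposite directions in different cell populations; the difference between populations was not itself tested, and each population has 1 library per genotype. Ccl5 had a ratio (double knockout over Apoe knockout) of 0.08443 in the smooth muscle class and 152.9 in modEC cluster 8, the latter set by 1 cell with 79 UMIs. Cx3cl1 had a ratio of 1.562 in the smooth muscle class and 0.4604 in modEC cluster 7. Cxcl2 had ratios of 0.2878 in endothelial cluster 9, 0.2808 in macrophage cluster 13, 0.4373 in the smooth muscle class and, as a bound, 0.3181 in fibroblast cluster 14, against 1.611 in modEC cluster 8. The Cxcl2 ratio of modEC cluster 8 was 1.05 without the cell with the most Cxcl2 UMIs in each library.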

How the results depend on the processing

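No paired analysis was possible because each genotype has 1 library. Counts of called chemokines moved as follows. In the whole libraries, 8 became 5 at a ratio of at least 2, 5 without macrophage cluster 13 (added after seeing the data) and 3 without cells of 2 or more macrophage marker UMIs. In endothelial cluster 9, 5 became 2 in cells of at least 1000 UMIs and under 10% mitochondrial UMIs, and 3 after thinning, without the top cells, at a ratio of 2, at 50 UMIs, and without macrophage-marker cells (2 of those 3 higher), and 0 without both macrophage-marker cells and top cells (added after seeing the data). In macrophage cluster 13, 3 became 6 by per-cell means, which have no counting interval. In the smooth muscle class, 5 became 2 after thinning. In the pooled modEC clusters, 5 became 1 after thinning and 3 at a ratio of 2. Directions turned on the log2 scale without macrophage-marker cells for Ccl7 (0.634), Cxcl1 (0.051) and Cxcl2 (0.425) in the whole libraries and for Cxcl1 (2.003) and Cxcl2 (2.155) in cluster 9, without both there for Cxcl1 (1.095) and Cxcl12 (0.653), and in deeper cells for Cxcl1 in cluster 9 (0.392) and Cxcl10 in modEC cluster 10 (0.657). In modEC cluster 8 they turned after thinning for Cxcl10 (0.186) and Cxcl12 (0.104) and by per-cell means for Cxcl2 (-0.614). The cause was not tested, though thinning and deeper cells keep fewer double knockout cells. Of the other ratios under an alternative, 295 stayed close and 77 moved without turning a called direction. The cluster with the highest level of a chemokine stayed in 27 checks and moved in 11, all but 1 of these in the double knockout, where clusters 13, 15 and 20 kept fewer than 20 deeper cells.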
